A study of Homo sapiens with 4 samples.

Results

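The interleukin-1 family and its receptors were followed as 10 genes of the 58233 in the deposited count table, picked by symbol: the cytokines IL1A, IL1B, IL18, IL33, IL36G and IL37, the receptor antagonists IL1RN and IL36RN, and the receptor chains IL1R1 and IL1RAP. All 10 were found, each as a single protein-coding gene. RNA came from MCF10AT, human breast epithelial cells of the MCF10A lineage transformed by HRasG12V, in 2 libraries whose genotype is given as Bromo+/- and 2 given as Non-target control. Both groups share the HRasG12V allele and a DMEM/F12 medium containing hydrocortisone, cholera toxin, insulin, epidermal growth factor, donor horse serum, penicillin and streptomycin. The labels do not spell out Bromo+/-, do not say whether the libraries of a group came from separate cultures or clones, and describe lentiviral shRNA delivery with puromycin selection only in general terms. The series title and design describe EP300 knockdown with shRNAs and triplicates, which the genotype labels and the 2 libraries a group do not match, so what Bromo+/- denotes is uncertain. EP300 stood at 121 and 126 scaled CPM in the Bromo+/- libraries, against 106 and 111 in the control libraries (CPM is counts divided by TMM-scaled library size; log2 fold change 0.19, SE 0.06, adjusted p = 0.00701, edgeR), so total EP300 transcript was not lower in Bromo+/-, and directions below rest on the group labels.

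Cytokines of this family signal through paired receptor chains. Interleukin-1 alpha and beta bind IL1R1, which then recruits the shared chain IL1RAP and starts the MYD88 and NF-kB cascade, while the antagonist made from IL1RN occupies IL1R1 without recruiting the second chain. IL36RN does the same at the interleukin-36 receptor, and IL1R2 is a decoy that binds interleukin-1 without signalling. In stratified and glandular epithelium, interleukin-1 alpha, interleukin-18 and interleukin-33 are kept in the cell as ready-made alarm signals, and interleukin-1 beta and interleukin-18 need proteolytic cleavage before release. Transcript counts show none of the cleavage, secretion or binding steps.

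In the Bromo+/- libraries the antagonist IL1RN was close to absent, IL1A and IL1B were lower, IL1R1 was higher and IL1RAP did not pass the test. Of the 10 genes, 7 had enough counts to be tested, and with edgeR's quasi-likelihood model 1 of the 7 was higher and 5 were lower at an adjusted p under 0.05. Over all 13179 genes tested 53.5% passed, 26.4% as higher and 27.1% as lower, so a gene that passes is common here. With library size alone as the scaling, 4433 genes were higher and 2794 lower, against 3485 and 3570. IL1RN and IL37 passed the count filter only through the control libraries, so they could only be called lower. IL36G, IL36RN and IL33 did not pass the filter. The median log2 fold change of the 7 tested members was -1.21, against 0.01 over all tested genes. With that limit, the count and the median show no direction of the family. Of the 5 that passed the filter through both groups, IL1A, IL1B and IL18 were lower, IL1R1 was higher and IL1RAP did not pass the test.

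Promoter sequence is shown for the 3 genes of the cluster on chromosome 2 that had the most control counts, because they lie within 360 kb of each other and were all lower. Windows of 300 bases, 250 before and 50 after an annotated start, were taken from RefSeq on GRCh38.p14, and 9 of the 10 members had at least 1 such window, 18 windows in all. IL1A is read from the minus strand of chr2:112784444-112784743, IL1B from the minus strand of chr2:112836730-112837029 and IL1RN from the plus strand of chr2:113117721-113118020. Each is written 5′ to 3′, and capitals mark matches to TGANTCA, the heptamer bound by AP-1 factors, on either strand.
IL1A: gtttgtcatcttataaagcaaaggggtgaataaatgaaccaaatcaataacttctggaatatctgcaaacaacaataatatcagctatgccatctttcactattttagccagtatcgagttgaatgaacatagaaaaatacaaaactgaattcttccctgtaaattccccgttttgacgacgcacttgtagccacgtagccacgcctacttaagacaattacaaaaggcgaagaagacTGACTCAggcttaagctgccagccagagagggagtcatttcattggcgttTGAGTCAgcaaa
IL1B: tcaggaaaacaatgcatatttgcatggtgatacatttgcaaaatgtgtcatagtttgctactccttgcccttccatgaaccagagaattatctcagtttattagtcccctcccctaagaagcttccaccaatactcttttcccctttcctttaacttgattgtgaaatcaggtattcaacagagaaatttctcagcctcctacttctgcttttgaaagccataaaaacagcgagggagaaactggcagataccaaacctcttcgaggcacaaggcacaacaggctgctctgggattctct
IL1RN: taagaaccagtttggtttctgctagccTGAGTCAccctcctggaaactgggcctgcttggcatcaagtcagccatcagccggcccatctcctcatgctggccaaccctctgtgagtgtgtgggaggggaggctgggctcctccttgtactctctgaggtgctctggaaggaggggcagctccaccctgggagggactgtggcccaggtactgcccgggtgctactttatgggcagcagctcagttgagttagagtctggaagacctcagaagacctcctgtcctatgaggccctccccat
The IL1A window held TGACTCA at bases -12 to -6 and TGAGTCA at bases 39 to 45, counted from 1 at the annotated start. The IL1RN window held TGAGTCA at -223 to -217. The IL1B window held no match, nor did the other 2 IL1RN windows, which lie at downstream starts. The heptamer was in 3 of the 18 member windows, against 7.71% of all 35116 windows. These include another IL1A window (minus strand of chr2:112784351-112784650), which overlaps the printed one and holds the same sites, at -105 to -99 and -55 to -49. The IL1A sites are therefore counted in more than 1 window. By gene, the heptamer was in 2 of the 9 members, IL1A and IL1RN, against 9.37% of the 27305 genes with a window. The 9 members had 18 windows and the 27305 genes 35116, so members had more windows per gene in which a match could fall. The kappaB consensus was in 1 of the 18 member windows, against 11.3% of all windows, and in 1 of the 9 members, against 13.3% of genes: IL36RN, on the minus strand at bases 1 to 10. A match is a stretch of letters, and occupancy was not measured.

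IL1A encodes interleukin-1 alpha, a cytokine already active as its precursor. It lies on chromosome 2 (GRCh38, 112773915 to 112784590, minus strand, 7 exon blocks). It had 36 and 30 counts in the Bromo+/- libraries, against 194 and 187 in the control libraries, which is 2.93 and 2.66 scaled CPM against 18.5 and 16.2. Both Bromo+/- libraries were far below both controls. IL1A averaged 2.80 ± 0.20 CPM in Bromo+/- and 17.3 ± 1.67 CPM in control (SD, n = 2 each). The level was 6.16-fold lower in Bromo+/-, or -2.62 on the log2 scale with an SE of 0.20 (edgeR adjusted p = 4.69e-35).

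IL1B encodes interleukin-1 beta, which is made as an inactive precursor. The gene lies next to IL1A (112829751 to 112836903, minus strand, 6 exon blocks). It had 56 and 38 counts in Bromo+/-, against 102 in each control library, or 4.56 and 3.37 scaled CPM against 9.74 and 8.82. The groups did not overlap, although the Bromo+/- pair was spread more widely than the control pair. IL1B averaged 3.97 ± 0.85 CPM in Bromo+/- and 9.28 ± 0.65 CPM in control (SD, n = 2 each), 2.32-fold lower in Bromo+/- (log2 -1.21, SE 0.19, edgeR adjusted p = 2.81e-09). It lay between -1.46 and -1.02 when 1 library was left out, the ends of that range coming from the 2 Bromo+/- libraries. Within a library, the ratio of IL1A to IL1B RPKM (scaled CPM per kilobase of exon) was 0.94 and 1.15 in Bromo+/-, against 2.77 and 2.67 in control. The exact two-sided permutation test on that ratio gave p = 0.333, the smallest value that 2 libraries against 2 allow.

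IL1RN encodes the interleukin-1 receptor antagonist, in secreted and intracellular forms that start at different promoters and that gene counts do not separate. It lies at the far end of the same cluster (113107214 to 113134016, plus strand, 12 exon blocks). It had 0 and 3 counts in the Bromo+/- libraries, against 287 and 302 in the control libraries. The Bromo+/- level was 0 and 0.27 scaled CPM and the control level 27.4 and 26.1. With 3 counts against 589 over the groups, the ratio of control to Bromo+/- was 210 (95% exact binomial interval 71.5 to 1021, counting error only), with an adjusted p of 5.55e-71 by edgeR. All 3 counts came from Bromo+/- replicate 2: without it the group has no IL1RN count and the fitted log2 fold change was -11.26, against -7.60 with all libraries and -6.60 without replicate 1. The RPKM ratio of IL1RN to IL1A plus IL1B was 0 and 0.035 in Bromo+/-, against 0.709 and 0.767 in control (exact two-sided permutation p = 0.333, the smallest possible). Antagonist transcript was lower relative to its agonists as well as in level.

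**Figure D1:**
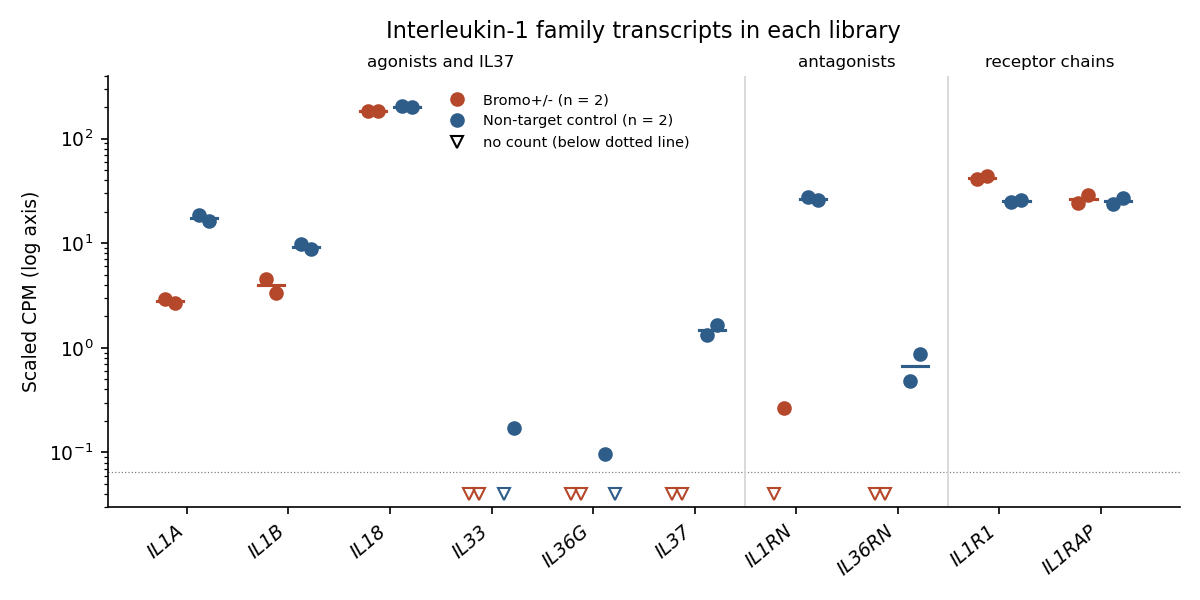
Scaled CPM (log axis) of the 10 genes in each library, Bromo+/- left of Non-target control, with agonists and IL37, antagonists and receptor chains side by side. Points are libraries, bars are group means where both libraries have counts, and open triangles are libraries without a count. IL1RN stands at 0 and 0.27 CPM in Bromo+/- against 27.4 and 26.1 in control, while IL18 and IL1RAP lie at nearly equal heights.

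IL37, a cytokine that dampens inflammation, and IL36RN, the antagonist of the interleukin-36 receptor, lie between IL1B and IL1RN and were counted only in control. IL37 (112912971 to 112918882) had 0 and 0 counts in Bromo+/-, against 14 and 19 in control. With 3 counts over the Bromo+/- group taken as a floor, it was at least 11.8-fold lower in Bromo+/- (adjusted p = 2.84e-10, edgeR). That bound takes the control count as exact and is not a 95% limit. IL36RN (113058638 to 113065382) had 0 and 0 counts in Bromo+/- and 5 and 10 in control, at least 5.35-fold lower on the same floor. It was too low for the main test, and it passed when no filter was applied, with the DESeq2 Wald test and without Bromo+/- replicate 2. In 1 library 3 counts correspond to 0.245 and 0.266 scaled CPM in Bromo+/-, against 0.287 and 0.259 in control.

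The agonists IL36G and IL33 had at most 2 counts in any library. IL36G, an interleukin-36 cytokine of barrier epithelium, had no count in Bromo+/- and 1 in control, in replicate 1. IL33, the nuclear alarm cytokine read by the receptor IL1RL1, had no count in Bromo+/- and 2 in control, both in replicate 2. It lies on chromosome 9 (6215786 to 6257983). No fold is given for either.

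IL18 was the most abundant member in both groups. It encodes a constitutively made cytokine that caspase-1 cleaves, and it lies on chromosome 11 (112143251 to 112164117, minus strand, 6 exon blocks). It had 2259 and 2098 counts in Bromo+/-, against 2133 and 2341 in control, or 184 and 186 scaled CPM against 204 and 202. The groups did not overlap after scaling, and the difference was small, 1.10-fold lower in Bromo+/- (log2 fold change -0.13, SE 0.06, adjusted p = 0.0312, edgeR). That call ended under 6 of 11 alternatives, with adjusted p from 0.0125 to 0.450 over all of them, among them the DESeq2 Wald test (0.0891) and library size alone (0.450). The 3 tested genes whose centred log2 CPM over the 4 libraries lay nearest to that of IL18 were BCL2L13 (root mean square difference 0.0052), PTPN11 (0.0057) and FBXO28 (0.0065). Their log2 fold changes were similarly small (-0.13, -0.14 and -0.13). With 4 libraries, a shared pattern cannot be told from a shared small group difference.

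Of the receptor chains, IL1R1 was higher in Bromo+/- and IL1RAP was not told apart between the groups. IL1R1, the signalling receptor of interleukin-1 (chromosome 2, 102064544 to 102179874, 18 exon blocks), had 506 and 495 counts in Bromo+/-, against 258 and 302 in control. That is 41.2 and 43.8 scaled CPM against 24.6 and 26.1, with no overlap. IL1R1 averaged 42.5 ± 1.84 CPM in Bromo+/- and 25.4 ± 1.04 CPM in control (SD, n = 2 each), 1.67-fold higher in Bromo+/- (log2 0.74, SE 0.09, edgeR adjusted p = 9.28e-14). IL1RAP, the accessory chain shared by the interleukin-1, interleukin-33 and interleukin-36 receptors (chromosome 3, 190514051 to 190659750, 21 exon blocks), had 24.0 and 28.8 CPM in Bromo+/-, against 23.8 and 27.2 in control. These ranges overlap, and the log2 fold change of 0.05 had a 95% interval of -0.15 to 0.24 (adjusted p = 0.724, edgeR). The RPKM ratio of IL1R1 to IL1RAP was 2.80 and 2.49 in Bromo+/-, against 1.69 and 1.57 in control.

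Ordered by RPKM, which allows genes to be compared, the 10 genes took different places in the 2 groups. In Bromo+/- the order of mean levels was IL18 (70.4), IL1R1 (6.01), IL1RAP (2.29), IL1A (1.32), IL1B (1.28) and IL1RN (0.041), and the other 4 had no counts. IL1A and IL1B overlapped there, with 1.38 and 1.25 against 1.47 and 1.09 RPKM. In control the order was IL18 (77.3), IL1RN (8.22), IL1A (8.17), IL1R1 (3.58), IL1B (3.00), IL1RAP (2.20), IL37 (1.78), IL36RN (0.203), IL36G (0.035) and IL33 (0.027). IL1RN and IL1A overlapped in control, as did IL36G and IL33, and the other neighbours did not. The antagonist stood with IL1A next after IL18 in control and below every other detected member in Bromo+/-. The lengths used cover all annotated exons of a gene, so a gene expressed as a short isoform is understated.

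**Figure D2:**
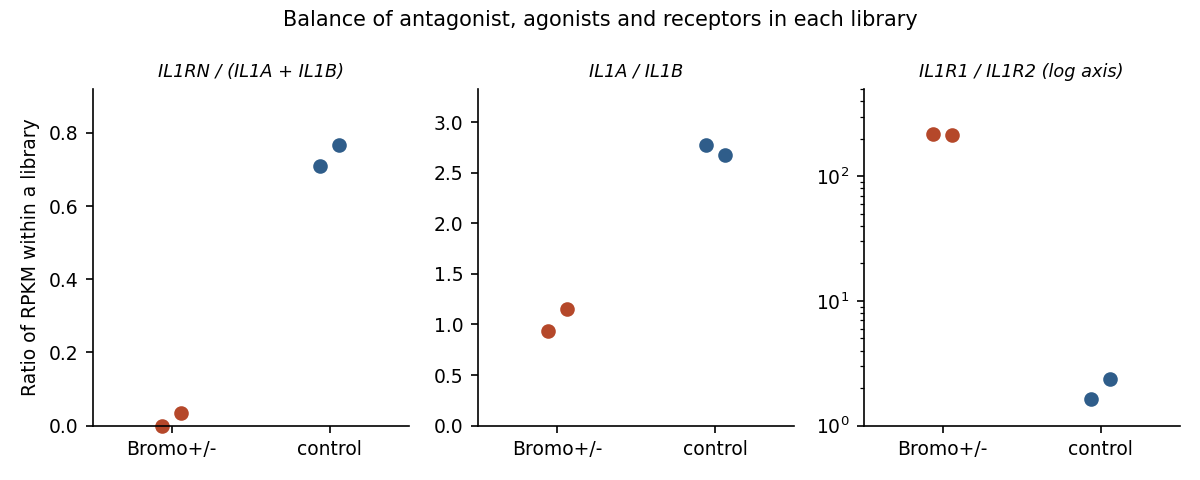
Ratios of RPKM within each library, Bromo+/- left of control, 1 point per library; the right panel has a log axis. IL1RN over IL1A plus IL1B is 0 and 0.035 in Bromo+/- against 0.709 and 0.767 in control, IL1A over IL1B is 0.94 and 1.15 against 2.77 and 2.67, and IL1R1 over IL1R2 is 220 and 215 against 1.65 and 2.38.

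Among the remaining ligands and receptors, the decoy IL1R2, the receptor chains IL1RL2 and IL1RAPL1 and the inhibitory receptor SIGIRR fell. Of 12 such genes 7 were tested, of which these 4 fell while 3 did not pass, and their median log2 fold change was -0.62. Over all genes tested 53.5% passed, 27.1% as lower. IL1R2, IL1RL2 and IL1RAPL1 reached the count filter only through the control libraries, so they could only be called lower and their count and median show no direction of the list. IL1R2, the decoy receptor, had 1 and 1 counts in Bromo+/-, against 68 and 55 in control, so that control exceeded Bromo+/- 65.8 times (95% exact binomial interval 17.8 to 549). IL1RL2, the ligand-binding chain of the interleukin-36 receptor, had no count in Bromo+/- against 19 and 24 in control, at least 15.3-fold lower. IL1RAPL1, a family member best known from synapses, had no count in Bromo+/- against 19 and 41 in control, at least 21.4-fold lower. SIGIRR, an inhibitory receptor, fell to 6.60 and 6.02 CPM in Bromo+/-, against 9.93 and 9.51 in control (log2 fold change -0.62, SE 0.17, adjusted p = 0.000724, edgeR). With DESeq2's Wald test SIGIRR no longer passed, at 0.0843. IL18BP, the soluble inhibitor of interleukin-18, shares 675 exon bases with NUMA1 on the opposite strand and did not pass (0.19, SE 0.23). IL18R1 (-0.27, SE 0.16) and IL1RL1 (-0.19, SE 0.37) did not pass either, and they share 95 exon bases on the same strand. The RPKM ratio of IL1R1 to IL1R2 was 220 and 215 in Bromo+/-, against 1.65 and 2.38 in control, with the Bromo+/- values resting on 1 IL1R2 count in each library.

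Genes beside the family were read for comparison. Of the 10 members 6 lie in the 2q14 cluster, whose family genes number 9 in the table. Of these 9, 4 were tested and all 4 fell. IL1RN and IL37 reached the count filter only through control and could only be called lower, which leaves IL1A and IL1B as the tested family genes here that were free to move either way. Among 41 other genes from 500 kb before the cluster to 500 kb after it, 13 were tested, 3 rose and 3 fell, 7 did not pass, and the median was 0.03. The share that passed over all genes tested was 53.5%. Of these 13, NT5DC4 reached the filter only through control, and SLC20A1-DT and RABL2A only through Bromo+/-. PSD4, just beyond IL1RN (113157325 to 113209396), fell by 1.10 on the log2 scale (SE 0.12), with 12.8 and 12.2 CPM in Bromo+/- against 26.4 and 27.2 in control. CKAP2L, on the IL1A side (112736607 to 112764677), fell by 0.55 (SE 0.07). NT5DC4 (112721486 to 112742879) had no count in Bromo+/- against 27 and 27 in control, at least 19.2-fold lower, and shares 474 exon bases with CKAP2L on the opposite strand. Farther out, the phosphate transporter gene SLC20A1 (0.52, SE 0.05), its divergent transcript SLC20A1-DT (1.28, SE 0.52) and the tubulin ligase gene TTL (0.23, SE 0.06) rose. The SLC20A1-DT call ended with the DESeq2 Wald test and without Bromo+/- replicate 2 or control replicate 1, with an adjusted p of up to 0.324 and a change between 0.82 and 2.06.

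**Figure D3:**
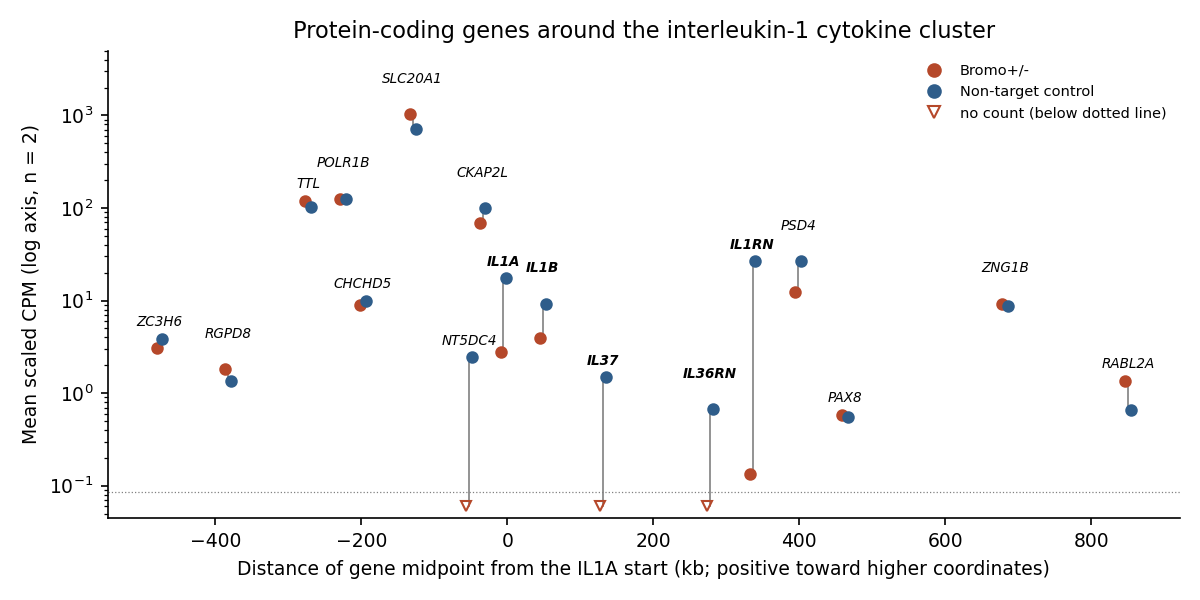
Mean scaled CPM (log axis, n = 2 libraries per group) of protein-coding genes with at least 15 counts in all, against the distance of the gene midpoint from the IL1A start in kb; lines join the Bromo+/- point, on the left, to the control point of the same gene. Family genes are in bold. IL1A, IL1B, IL37, IL36RN and IL1RN are lower in Bromo+/-, as are NT5DC4, CKAP2L and PSD4 beside them, and SLC20A1 is higher.

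The receptor genes form a second cluster on chromosome 2. Within 500 kb of IL1R1, 5 family genes were tested, where 53.5% of all genes tested passed, 26.4% as higher and 27.1% as lower. IL1R1 rose, and IL18R1 and IL1RL1 did not pass. IL1R2 and IL1RL2, on either side of IL1R1, fell, but they reached the count filter only through control and could only be called lower. Of 3 other genes tested there, MAP4K4, a kinase gene, fell by 0.32 on the log2 scale (SE 0.05), and the noncoding LINC01127 had 0 and 2 counts in Bromo+/- against 17 and 19 in control, which alone carried it past the filter, so that control exceeded Bromo+/- 19.2 times (95% exact binomial interval 4.95 to 165), both Bromo+/- counts being from replicate 2. SLC9A2 did not pass.

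Genes that process or release these cytokines moved in both directions. Of 16 listed 12 were tested, 5 rose, 4 fell and 3 did not pass, where 53.5% of all genes tested passed. Their median log2 fold change was 0.02. PYCARD, the adaptor that joins inflammasome sensors to caspase-1, had 58 and 52 counts in Bromo+/-, against 6 and 16 in control (2.21, SE 0.35, adjusted p = 3.09e-11, edgeR). The control libraries differed from each other, and the change was 3.00 without control replicate 2 and 1.74 without replicate 1. NLRP1, an inflammasome sensor of epithelial cells, rose by 1.05 (SE 0.18), with 9.21 and 11.3 CPM in Bromo+/- against 4.87 and 5.02 in control. CASP8 (0.33), CASP1, the protease that cleaves interleukin-1 beta and interleukin-18 (0.31), and S100A13, which takes part in interleukin-1 alpha export (0.21), rose by little, and the calls for CASP1 and S100A13 ended under 3 alternatives each, the highest adjusted p being 0.252 and 0.423. S100A13 also shares 235 exon bases with S100A1 on the opposite strand. The calpain genes CAPN1 (-0.90, SE 0.05) and CAPN2 (-0.44, SE 0.05), proteases that cut the interleukin-1 alpha precursor, fell. GSDME, a pore-forming gasdermin, fell to 11.2 and 12.1 CPM in Bromo+/-, against 29.3 and 29.7 in control (-1.34, SE 0.12). CTSS, a lysosomal protease, had 7 and 2 counts in Bromo+/- against 33 and 33 in control (-2.94, SE 0.52). Its change was -3.998 without Bromo+/- replicate 1 and -2.37 without replicate 2. PYCARD reached the count filter only through Bromo+/- and CTSS only through control, so each could be called in 1 direction alone. CASP4 (-0.04, SE 0.07), the pore-forming GSDMD (0.07, SE 0.11) and HAX1 (-0.07, SE 0.07) did not pass. The sensors NLRP3 and AIM2, named for their role and after their values were seen, had 1 count and no count over all libraries.

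Of the shared signalling chain below the receptor, most tested genes did not pass. Of 19 listed 17 were tested, 1 rose, 4 fell and 12 did not pass, where 53.5% of all genes tested passed. The median was -0.05. MYD88, the adaptor bound by the receptor pair, fell to 53.0 and 51.2 CPM in Bromo+/-, against 70.6 and 65.5 in control (-0.38, SE 0.07, adjusted p = 2.45e-06, edgeR). TAB3, which carries the kinase TAK1 to polyubiquitin, fell by 1.17 (SE 0.08), the kinase gene MAP3K8 by 1.21 (SE 0.26) and the ubiquitin ligase gene PELI1 by 1.00 (SE 0.23). MAP3K3 rose by 0.46 (SE 0.09). Among those that did not pass, named for their role after their values were seen, were the kinases IRAK1 (-0.05, SE 0.05) and IRAK4 (-0.14, SE 0.12) and the ligase TRAF6 (-0.10, SE 0.13).

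Genes known to be induced by interleukin-1 in epithelium fell, rose or did not pass, and some could only be called lower. Of 25 listed 19 were tested, 13 fell, 1 rose and 5 did not pass, where 27.1% of all genes tested fell and 26.4% rose. Their median log2 fold change was -1.20, against 0.01 over all tested genes. Of the 19, 6 reached the count filter only through control (CSF2, PTGS2, SAA2, LCN2, ICAM1 and S100A9) and could only be called lower. The count and the median therefore do not measure a direction of the list. Among the 13 that passed the filter through both groups, CXCL1, CXCL8, LIF, SAA1, NFKBIZ, TNFAIP3 and BIRC3 fell. ZC3H12A rose, and the others of that part did not pass the test. The ICAM1 call ended under 3 alternatives, among them the DESeq2 Wald test (adjusted p = 0.231). The 4 of the 19 with the smallest adjusted p were SAA1, BIRC3, TNFAIP3 and LIF, all lower. TNFAIP3, a deubiquitinase gene that limits NF-kB, had 6.36 and 7.35 CPM in Bromo+/-, against 45.7 and 43.3 in control. BIRC3, a ubiquitin ligase gene of the same pathway, had 31.6 and 35.1 CPM in Bromo+/-, against 113 and 125 in control. LIF, a cytokine of the interleukin-6 family, had 42.4 and 40.9 CPM in Bromo+/-, against 131 and 124 in control. SAA1, an acute-phase protein gene, had 2.61 and 3.37 CPM in Bromo+/-, against 37.2 and 36.3 in control, and its near-identical neighbour SAA2 leaves the split of reads uncertain. PTGS2, the inducible cyclooxygenase gene, and CSF2, a colony-stimulating factor gene, named here after their values were seen, had 4 and 3 counts in Bromo+/- against 103 and 133 in control, and 4 and 2 against 49 and 47. ZC3H12A, an RNase gene that limits inflammatory transcripts, rose by 0.31 (SE 0.10), a call that ended under 3 alternatives (highest adjusted p 0.220). NFKBIA (0.05, SE 0.07), CXCL2 (-0.02, SE 0.23), CXCL3 (-0.52, SE 0.28), CCL20 (-0.01, SE 0.15) and IL6 (0.30, SE 0.33) did not pass.

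**Figure D4:**
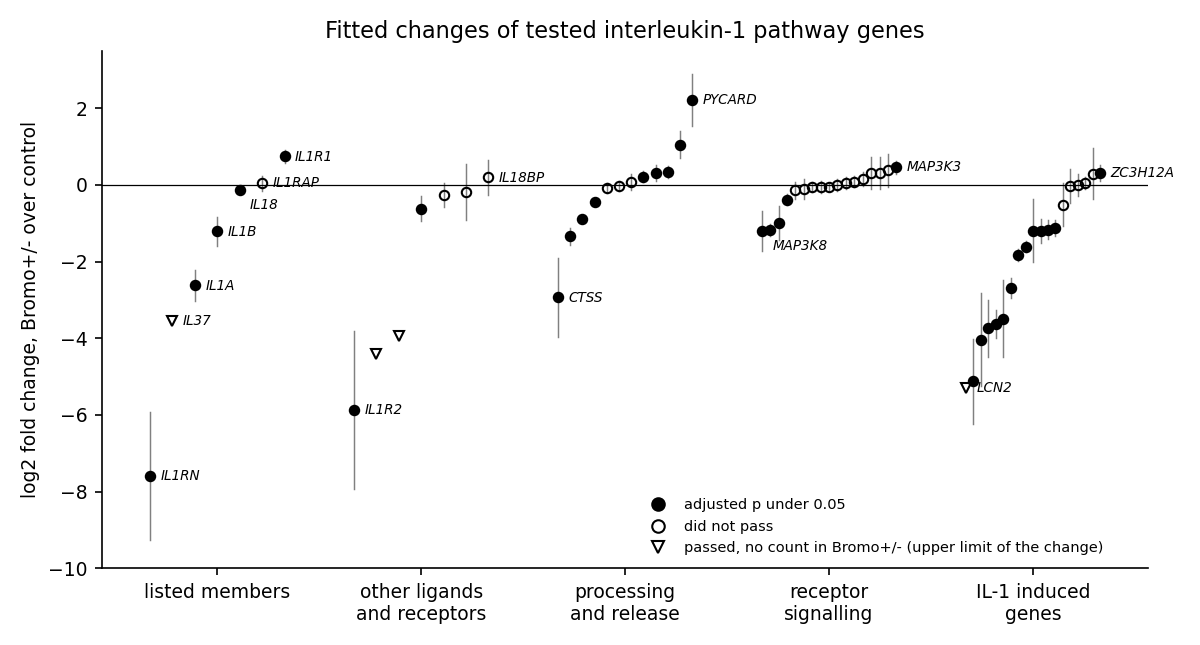
Fitted log2 fold changes, Bromo+/- over control, of tested genes in 5 lists, each list sorted from low to high, with 95% intervals as lines. Filled circles passed an adjusted p of 0.05, open circles did not, and triangles mark genes with no Bromo+/- count, drawn at the bound against 3 counts. IL1RN is drawn at -7.60 and IL1R1 at 0.74; IL37, at its bound, cannot be ranked against IL1RN.

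Markers of other cells were read beside these values. All 8 epithelial markers fell, with a summed level of 1209 and 1119 CPM in the Bromo+/- libraries against 9765 and 9360 in the controls, and all 8 mesenchymal markers rose, with 5897 and 6063 CPM against 1929 and 1813. Of all genes tested 27.1% fell and 26.4% rose. KRT14 and TP63 reached the count filter only through control, and SPARC and DCN only through Bromo+/-, so each could be called in 1 direction alone. The 6 epithelial markers that passed the filter through both groups fell, and the 6 such mesenchymal markers rose. The part of the shift in these markers in the interleukin-1 values was not tested. In bulk RNA, fewer cells with a transcript cannot be told apart from less transcript per cell. Of 8 leukocyte markers, macrophage and monocyte genes included because these cells make IL1B, 2 were tested and both fell (CD14 and CSF1R), with summed levels of 5.13 and 4.52 CPM in Bromo+/- against 14.4 and 13.1 in control. PTPRC, the pan-leukocyte gene, had 1 count over all libraries, and TYROBP and AIF1 had none. Of 5 endothelial markers 2 were tested, of which KDR rose and PECAM1 did not pass. KDR reached the count filter only through Bromo+/-, so it could only be called higher. Summed levels of the 5 were 3.75 and 4.34 CPM in Bromo+/- against 4.58 and 3.03 in control.

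The libraries held 11975396 and 10953756 counts in Bromo+/-, against 10835237 and 11884715 in control. Both libraries of one group lay above both of the other for 75.2% of all genes tested, so a lack of overlap is common in this comparison. Nothing says that the libraries are separate cultures, so the p-values rest on library-to-library spread alone, which may be technical.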

How the data were processed

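RNA-seq was made from 4 MCF10AT libraries with a stranded mRNA library kit, per the labels' protocols. The authors deposited 1 table of unnormalized counts of reads per gene, under Ensembl identifiers, with exon coordinates and gene lengths. Alignment was with STAR and counting with featureCounts 1.5.2 on GRCh38, per the submitters' processing notes. For annotation release, strand setting and multi-mapped reads nothing is given in the sources used. Columns were matched by name: Br abbreviates Bromo, and WT was read as the Non-target control, the only other group. Of 58233 identifiers 57392 were named from current symbols, 503 from GENCODE 29, and 338 had none.

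The main test was that of edgeR 4.0.16 (R 4.3.3) on these counts: filterByExpr (13179 genes), TMM scaling, quasi-likelihood fit (robust, 2 residual degrees of freedom), Benjamini-Hochberg adjustment over all genes tested and a threshold of 0.05. Standard errors are Wald errors from the fit. The fit pools spread across genes, so p-values and intervals rest on more than a gene's own 2 residual degrees of freedom. Scaled CPM divides counts by TMM-scaled library size, and RPKM also by exon length. Genes without counts in a group are given as bounds against 3 counts over the group. These bounds take the count of the other group as exact and are not 95% limits. Genes with 1 to 3 counts are given as ratios with 95% exact intervals, which cover counting error only. Replicates of a group differed by more than sampling noise (chi-square per degree of freedom 2.58 in Bromo+/- and 1.61 in control), so none was counted as a copy. No exon of a member overlaps another gene with counts. Named genes are all members, list genes with the smallest adjusted p (up to 4 a list) or in a count of 5 or fewer, chromosome 2 neighbours with counts, and the 3 nearest to the most abundant member; others are said to be chosen after their values were seen. Alternatives were other scalings, filters, the DESeq2 1.42.0 Wald test, the replicate number as a block and each library left out. The members and lists were chosen with earlier results of these data known.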

Additional observations from a re-analysis of the deposited data

How the results depend on the processing

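IL1A, IL1B, IL1RN and IL1R1 kept their direction and passed under all 11 alternatives, and IL37 under the 10 that tested it (without control replicate 2 it fell below the filter). IL1RN and IL37 reached the main count filter only through control, so in fits with that filter they could only be called lower. Over them the log2 fold change lay between -2.73 and -2.53 for IL1A and between 0.70 and 0.83 for IL1R1. IL18 did not pass with upper quartile scaling (-0.075), library size alone (-0.051) or the DESeq2 Wald test (-0.15), and ranged from -0.14 to -0.13 (-0.1441 to -0.1293) when 1 library was left out, passing only without Bromo+/- replicate 2. IL1RAP, never past the threshold, turned negative without Bromo+/- replicate 2 (-0.089) or control replicate 1 (-0.048), and ranged from -0.089 to 0.17 over the libraries left out. The cause was not tested. Members past the threshold numbered 4 to 7 and other pathway genes 27 to 34. Over all genes 4470 of 15516 passed with the DESeq2 Wald test, against 7055 of 13179 in the main test. The share of 53.5% used above is therefore that of the main test and is lower with DESeq2. Upper quartile scaling gave 4133 higher and 2985 lower, and library size alone 4433 and 2794, against 3485 and 3570. With the replicate number as a block 7271 passed, and no call for a member changed. Same-numbered libraries deviated together only weakly (r = 0.14 across genes) and no label ties them, so they are not treated as pairs. Of 40 other called genes followed, 34 kept their call throughout. With an arm of 1 library, that library is assumed to vary like the other group. Depth limits IL36G, IL33 and IL36RN.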
